A study of Mus musculus with 8 samples.

Results

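The 4 mouse genes of the nuclear factor I (NFI) family, Nfia, Nfib, Nfic and Nfix, and the zinc finger gene Zbtb20 were followed through RNA sequencing libraries of tdTomato-positive brain cells. They were taken by gene symbol, so they make up 5 of the 53507 gene rows counted in each library, and all 5 passed the filter on low counts. tdTomato is a red fluorescent reporter, and the labels call the sorted cells progenitor cells. The groups, with 2 libraries each, were cells of embryonic day 13 (E13) and embryonic day 15 (E15) labelled wild type, and cells of postnatal day 12 (P12) from pups kept in normal air (normoxia) or in 10% oxygen from P3 for 8 days, until P11 (hypoxia). The hypoxic cells were thus collected after the exposure had ended. The labels give no driver for the reporter, no strain, no further allele, and no word on whether the 2 libraries of a group came from separate animals, so p-values measure only the spread between these libraries, which may be technical.

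NFI proteins are transcription factors that bind a palindromic DNA motif as homodimers or heterodimers, through a DNA-binding domain near the amino terminus that the 4 paralogs share. In the developing brain they promote the switch of radial glia from making neurons to making glia, and mice without Nfia, Nfib or Nfix show delayed glial differentiation. Zbtb20 belongs to the BTB zinc finger repressors, is needed for hippocampal identity and for the timing of upper layer neurons, and has been described as promoting astrocyte formation.

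Because the 4 NFI genes are paralogs, a stretch of the coding sequence of the shared domain is shown first, to let a reader see how far their reads can be told apart. It was chosen as the gap-free window of 60 bases within a single exon with the most positions identical in all 4 genes. It thus shows the closest likeness and not the typical one. The 60 bases lie in exon 2 of each gene (GENCODE M21, GRCm38), are written 5′ to 3′ on the strand of the gene, and have in capitals the positions at which the 4 genes are not all alike.
Nfia: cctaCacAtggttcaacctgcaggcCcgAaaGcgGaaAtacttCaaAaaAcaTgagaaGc
Nfib: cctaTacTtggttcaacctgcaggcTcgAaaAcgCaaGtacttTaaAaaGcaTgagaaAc
Nfic: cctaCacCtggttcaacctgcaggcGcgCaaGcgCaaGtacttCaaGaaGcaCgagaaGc
Nfix: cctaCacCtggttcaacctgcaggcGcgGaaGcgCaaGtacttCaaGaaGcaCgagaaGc
These windows lie at chr4:97783134-97783193 (Nfia, plus strand), chr4:82498658-82498717 (Nfib, minus strand), chr10:81420687-81420746 (Nfic, minus strand) and chr8:84772204-84772263 (Nfix, minus strand). In the window 48 of 60 positions were identical in all 4 genes, and the 12 that varied all fell on the last base of a codon. Over the whole coding sequence, pairs of the 4 genes were 63.8% to 71.3% identical. The longest stretch that any pair of NFI genes shared exactly was 32 bases, between Nfic and Nfix, and 0 windows of 50 bases occurred in more than 1 NFI gene. The longest stretch shared with Zbtb20 was 24 bases. The read length is not given in the sources used here, so these lengths are a description of the transcripts and not a rate of misassigned reads.

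Nfia (chr4:97772734-98118874, plus strand) and Nfib (chr4:82290173-82705750, minus strand) lie on the same chromosome, Nfic lies at chr10:81396186-81455635 and Nfix at chr8:84699876-84800344, both on the minus strand. Zbtb20 (chr16:42875881-43642602, plus strand) spans 766722 bases and has 30730 bases of exon, against 6630 to 14957 bases for the NFI genes. The strand setting of the counting is not stated. On the strand opposite to Nfia, E130114P18Rik shares 4 exon bases with it, and Gm11266 lies on the strand opposite to Nfib without sharing exon bases.

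Library depth was 36252027 to 47084796 counts in gene rows, and 19936 genes were tested. Levels are given as CPM, the counts per mega-count of a library size scaled by edgeR's TMM method. A gene listed at 0 could stand at up to 0.0482 to 0.111 CPM, which is 3 counts depending on the library. These limits cover counting error only. The P12 libraries differed in kind from the embryonic ones: 17520 to 18318 genes reached 10 counts in an embryonic library but 11695 to 16468 in a P12 library, and the TMM factors were 0.639 to 0.848 at P12 and 1.32 to 1.38 in the embryo. The replicates of a P12 group also lay farther apart. Over genes of at least 10 CPM the median gap between replicates was 0.17 (E13), 0.16 (E15), 0.82 (P12 normoxia) and 1.39 (P12 hypoxia) on the log2 scale. Astrocyte markers (7 genes) summed to 18.2 to 40.2 CPM over the embryonic libraries, with Aldh1l1 at 0 in all 4 and Aqp4 and Gfap at 0 at E15, and to 6440 to 8600 CPM over the P12 libraries, where edgeR called 7 of 7 higher than at E15 in both conditions (4 of 7 in normoxia and 5 of 7 in hypoxia without either E15 library). Neuron markers (7 genes) summed to 2560 to 2930 CPM in the embryo and 267 to 686 CPM at P12. Oligodendrocyte lineage markers (8 genes) summed to 12.5 to 38.0 CPM in the embryo, 560 to 684 CPM in normoxic and 1690 to 3270 CPM in hypoxic P12 libraries. Progenitor markers (7 radial glia genes) summed to 223 to 315 CPM in the embryo and 1160 to 1550 CPM at P12. Fabp7, Hes5, Pax6 and Sox2 were higher in each P12 library than in each embryonic one. Vim (69.2 to 208 CPM in the embryo, 22.1 to 140 CPM at P12) and Nes overlapped between the stages. Hopx was at 0.407 to 1.43 CPM in all libraries. Intermediate progenitor markers (4 genes) summed to 443 to 771 CPM in the embryo and 49.3 to 162 CPM at P12. Mural markers (5 genes) summed to 0.34 to 4.52 CPM in the embryo and 1020 to 2520 CPM at P12, where Rgs5 held most of the sum and Kcnj8 and Vtn were at 0. Red blood cell genes (5) summed to 2240 to 7290 CPM at E13, 20.1 to 85.5 CPM at E15 and at most 4.3 CPM at P12. In such sorted bulk samples a change in the number of cells of a type and a change in RNA per cell cannot be told apart, and the part of these markers in the results below was not tested.

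Nfia, whose product is the NFI factor most closely tied to the start of astrocyte formation, went from a moderate level to one of the highest in the transcriptome. It was measured at 295 and 234 CPM in the E13 libraries, 240 and 239 CPM at E15, 9610 and 7020 CPM in normoxic and 8340 and 10700 CPM in hypoxic P12 libraries. The E13 and E15 values overlapped, the normoxic and hypoxic values overlapped, and each P12 library was far above each embryonic one. In raw counts this was 13108 to 16519 reads per embryonic library and 215347 to 302715 per P12 library, or 0.0316% to 0.0402% and 0.594% to 0.682% of all counts in gene rows. Per kilobase of exon, Nfia ranked 1887 to 2472 of 19532 genes in the embryonic libraries and 23 to 32 in the P12 libraries.

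Nfib, which acts beside Nfia in glial differentiation and in deep layer projection neurons, had the highest level per length of the family in the embryo. It was lower at P12 than at E15. Its values were 1840 and 1290 CPM at E13, 1940 and 2190 CPM at E15, 889 and 997 CPM in normoxia and 1390 and 1470 CPM in hypoxia. The E15 pair lay above the E13 pair and above both P12 pairs, and the hypoxic pair lay above the normoxic one and within the range of the E13 pair. The order of the groups was thus E15, E13, hypoxia and normoxia, with E13 and hypoxia not separated; with unscaled library totals the E13 pair (2500 and 1780 counts per mega-count) lay above the hypoxic one (1100 and 937).

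Nfix, known for roles in postnatal neural stem cells and in the exit from proliferation, was already higher at E15 than at E13. It had 169 and 160 CPM at E13, 693 and 758 CPM at E15, 952 and 2230 CPM in normoxia and 1550 CPM in both hypoxic libraries. The E13, E15 and P12 values formed a rising order without overlap under this scaling, though with unscaled library totals the E15 and P12 values overlapped, and the normoxic libraries, 1.23 apart on the log2 scale, lay on either side of the hypoxic ones.

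Nfic, best known outside the brain for tooth root formation, was the lowest of the family in each library. It had 6.24 and 9.68 CPM at E13, 17.9 and 12.3 CPM at E15, 79.8 and 62.7 CPM in normoxia and 52.3 and 137 CPM in hypoxia. No embryonic library reached the P12 values, while the hypoxic pair, 1.39 apart on the log2 scale, enclosed the normoxic pair.

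Zbtb20 followed the same order as Nfix with a wider range. It was at 41.4 and 29.8 CPM at E13, 136 and 192 CPM at E15, 2470 and 1460 CPM in normoxia and 1710 and 2360 CPM in hypoxia. The 3 stages did not overlap, whereas the hypoxic pair lay inside the range of the normoxic pair. Per kilobase of exon its rank among 19532 genes was 11615 and 12419 at E13, 8031 and 6816 at E15, and 809 to 1274 at P12.

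**Figure D1:**
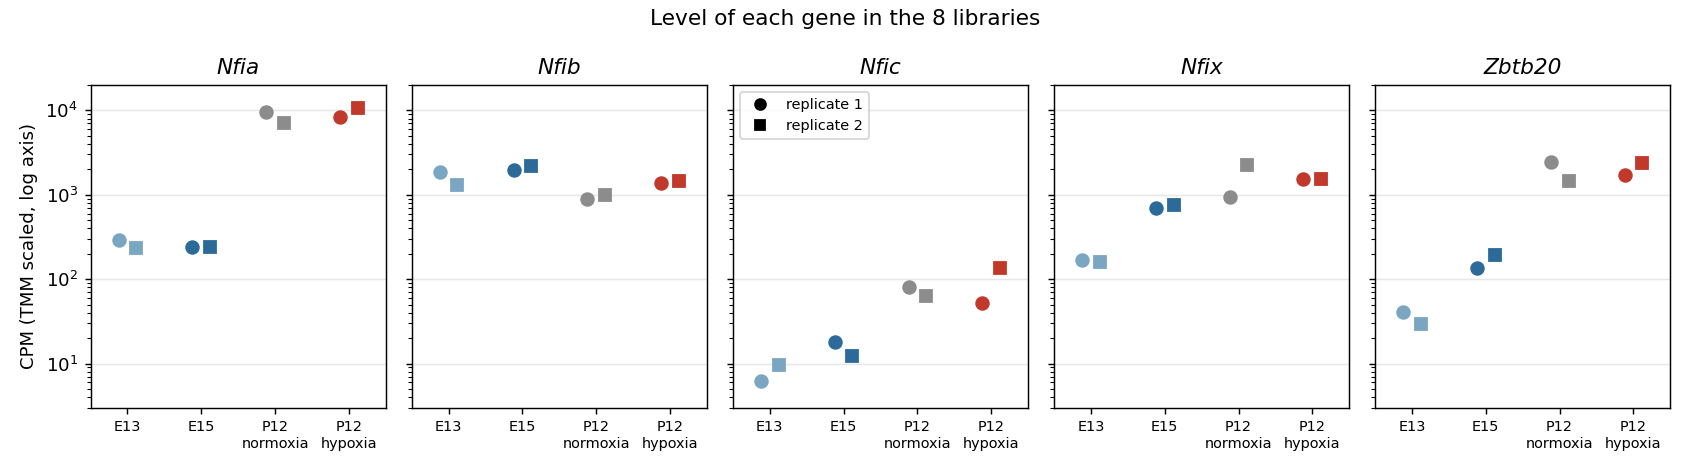
Level of each of the 5 genes in each of the 8 libraries, in CPM on a log axis, with circles for replicate 1 and squares for replicate 2 of each group. The 4 P12 libraries sit above the 4 embryonic ones for Nfia, Nfic, Nfix (which overlaps with unscaled library totals) and Zbtb20, and Nfib is highest at E15.

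The makeup of the family differed between the stages. The levels of the 4 NFI genes per kilobase of exon summed to 174 and 131 at E13, 248 and 273 at E15, 1080 and 1020 in normoxia and 1080 and 1310 in hypoxia (CPM per kilobase). In this sum Nfib took 70.7% and 65.9% at E13, 52.1% and 53.6% at E15, 5.48% and 6.51% in normoxia and 8.63% and 7.49% in hypoxia. Nfia took 15.6% and 16.4% at E13, 8.86% and 8.04% at E15, 81.5% and 62.9% in normoxia and 71.1% and 74.8% in hypoxia. Nfib was thus the leading NFI transcript per length in each embryonic library and Nfia in each P12 library. Nfix held 13.2% and 16.6% at E13 and 38.0% and 37.7% at E15, so that its E15 share was above each other library, including the P12 range of 12% to 29.7%. Nfic held 0.541% to 1.58% of the sum in any library.

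The ratio of Nfia to Nfib per length was 0.221 and 0.249 at E13, 0.17 and 0.15 at E15, 14.9 and 9.67 in normoxia and 8.24 and 9.99 in hypoxia. A ratio within a library does not change with the scaling between libraries, so this exchange of the leading transcript holds under each scaling. With the longest transcript in place of all exon bases as the length, the ratio was 0.105 to 0.173 in the embryonic libraries and 5.74 to 10.3 in the P12 libraries. Such a ratio shows unequal change of the 2 genes and not which of them changed.

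**Figure D2:**
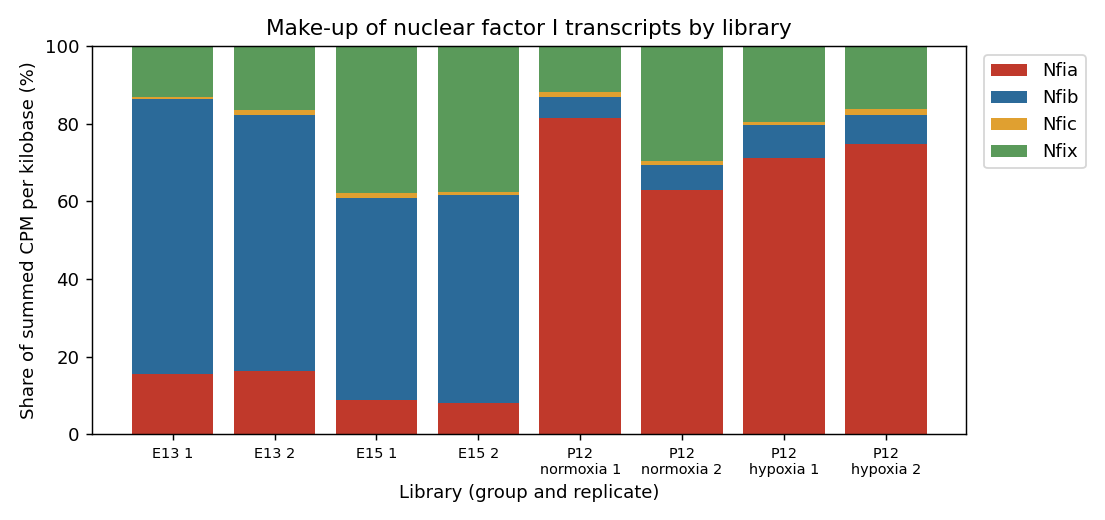
Share of each NFI gene in the summed CPM per kilobase of exon of the 4 NFI genes, as a stacked bar in percent for each of the 8 libraries. Nfib holds 52.1% to 70.7% of each embryonic bar and Nfia 62.9% to 81.5% of each P12 bar.

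The first comparison asked how the genes differed between the embryonic stages. At E15 against E13, Nfib, Nfic, Nfix and Zbtb20 were higher without overlap, as were 23.6% of all tested genes, and Nfia overlapped. The log2 difference was 2.14 for Nfix (SE 0.40, 95% interval 1.17 to 3.11, 4.41-fold) and 2.20 for Zbtb20 (SE 0.37, interval 1.30 to 3.11, 4.6-fold). It was 0.92 for Nfic (interval -0.61 to 2.46), 0.40 for Nfib (interval -0.11 to 0.91) and -0.14 for Nfia (interval -0.67 to 0.38). With edgeR's quasi-likelihood test, 0 of the 5 genes had a Benjamini-Hochberg adjusted p under 0.05, and neither had any of the 19936 tested genes (0%). For Nfix the edgeR p was 0.00165 unadjusted and 0.658 adjusted, and for Zbtb20 it was 0.001 unadjusted and 0.554 adjusted; 3.46% of all genes had an unadjusted p under 0.05. Other tools called some of these: DESeq2 called Nfix (adjusted p = 0.000653) and Zbtb20 (adjusted p = 0.00429) with 364 genes in all, limma-voom called Nfix (adjusted p = 0.016) with 935 genes, and edgeR on the E13 and E15 libraries alone called Nfix (adjusted p = 0.0353) with 229 genes. Over the alternatives the adjusted p of both genes reached up to 1.

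Each P12 group was then set against E15, and these comparisons share the E15 libraries. In both, Nfia, Nfic, Nfix and Zbtb20 were higher without overlap, as were 30.6% of all tested genes in normoxia and 23.8% in hypoxia, and Nfib was lower without overlap, as were 36.8% and 40.7%. In normoxia, Nfia rose by 5.12 on the log2 scale (SE 0.26, 95% interval 4.49 to 5.74, 34.7-fold), with an edgeR adjusted p of 0.0011. In hypoxia it rose by 5.31 (SE 0.26, interval 4.68 to 5.94, 39.7-fold), with an edgeR adjusted p of 0.000931. Zbtb20 rose by 3.58 in normoxia (SE 0.39, interval 2.62 to 4.54, 12-fold, edgeR adjusted p = 0.00535) and by 3.63 in hypoxia (SE 0.39, interval 2.68 to 4.59, 12.4-fold, edgeR adjusted p = 0.00417). The Nfia call held in 18 of 18 alternatives in both comparisons. The Zbtb20 call held in 16 of 18 for normoxia and 17 of 18 for hypoxia. It was lost without E15 replicate 1 (edgeR adjusted p = 0.0709 and 0.0522) and, for normoxia, without E15 replicate 2 (edgeR adjusted p = 0.0536).

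Nfib and Nfic each passed the test in 1 of these comparisons. Nfib fell by 1.13 on the log2 scale in normoxia (SE 0.21, interval -1.64 to -0.62, 2.19-fold lower, edgeR adjusted p = 0.0289). In hypoxia its difference was -0.53 (interval -1.04 to -0.02, edgeR adjusted p = 0.126). Nfic was 2.24 above E15 in normoxia (interval 0.65 to 3.83, edgeR adjusted p = 0.0817) and rose by 2.65 in hypoxia (interval 1.03 to 4.26, 6.26-fold, edgeR adjusted p = 0.042). Whether the effect differed between the P12 groups is the test of hypoxia against normoxia given further on, which neither gene passed. The Nfib call in normoxia was lost in 6 of 18 alternatives, namely limma-voom (adjusted p = 0.433), the replicate block in edgeR (adjusted p = 0.0769) and edgeR without E15 replicate 1 (0.155), E15 replicate 2 (0.211), normoxia replicate 1 (0.0919) or normoxia replicate 2 (0.0581). The Nfic call in hypoxia held in 6 of 18 alternatives, with an edgeR adjusted p of up to 0.269, reached without E15 replicate 2; it was lost on leaving out any library other than hypoxia replicate 1, including 0.213 without E15 replicate 1, 0.0726 without hypoxia replicate 2, 0.115 and 0.116 without an E13 library, and 0.059 and 0.0527 without a normoxia library. The Nfic call in normoxia was gained without hypoxia replicate 1 (edgeR adjusted p = 0.0271) or replicate 2 (0.0348), by DESeq2 (0.006), by limma-voom (0.0305) and by edgeR on the compared groups alone (0.0466).

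Nfix was 1.13 above E15 in normoxia (SE 0.38, interval 0.19 to 2.07, edgeR adjusted p = 0.116) and 1.10 above it in hypoxia (SE 0.38, interval 0.16 to 2.03, edgeR adjusted p = 0.0975), so it did not pass the test in either. It passed without normoxia replicate 1 in both comparisons (edgeR adjusted p = 0.0235 and 0.0105), and in hypoxia also without normoxia replicate 2 (0.00922), on the compared groups alone (0.0409) and by DESeq2 (0.0161). In all, 3 of the 5 genes were called in normoxia and 3 in hypoxia, beside 10.4% and 19.3% of all tested genes. By direction, 2 were called higher and 1 lower in normoxia, where 7.19% of all genes were called higher and 3.22% lower. In hypoxia 3 were called higher and 0 lower, beside 9.14% and 10.2% of all genes. The count fell to 1, Nfia, without E15 replicate 1 in both comparisons and without E15 replicate 2 in normoxia.

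The size of these differences depended on the scaling. With library totals in place of TMM, an alternative chosen after seeing the data, the median of all tested genes moved from 0.00 to -0.79 in normoxia and from -0.32 to -1.22 in hypoxia on the log2 scale. Called genes were then 42.9% higher ones in place of 69.1% in normoxia, and 28.1% in place of 47.3% in hypoxia. Under that scaling Nfix was 948 and 1000 counts per mega-count at E15, 651 and 1890 in normoxia and 1220 and 992 in hypoxia. Its P12 and E15 values thus overlapped, with log2 differences of 0.38 (edgeR adjusted p = 0.607) and 0.19 (edgeR adjusted p = 0.8). Nfib was 2650 and 2900 counts per mega-count at E15, 608 and 843 in normoxia and 1100 and 937 in hypoxia, with log2 differences of -1.93 and -1.44, and its fall in hypoxia then passed the test (edgeR adjusted p = 0.0138), as it did with upper-quartile scaling (-0.85, edgeR adjusted p = 0.0376). Zbtb20 was 2.73 and 2.70 higher on the log2 scale, and Nfia between 4.28 and 5.32 higher in normoxia over all alternatives. The lower level of Nfib and the higher levels of Nfia and Zbtb20 at P12 therefore kept their direction under each scaling, and for Nfix the direction held with a size near 0.

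**Figure D3:**
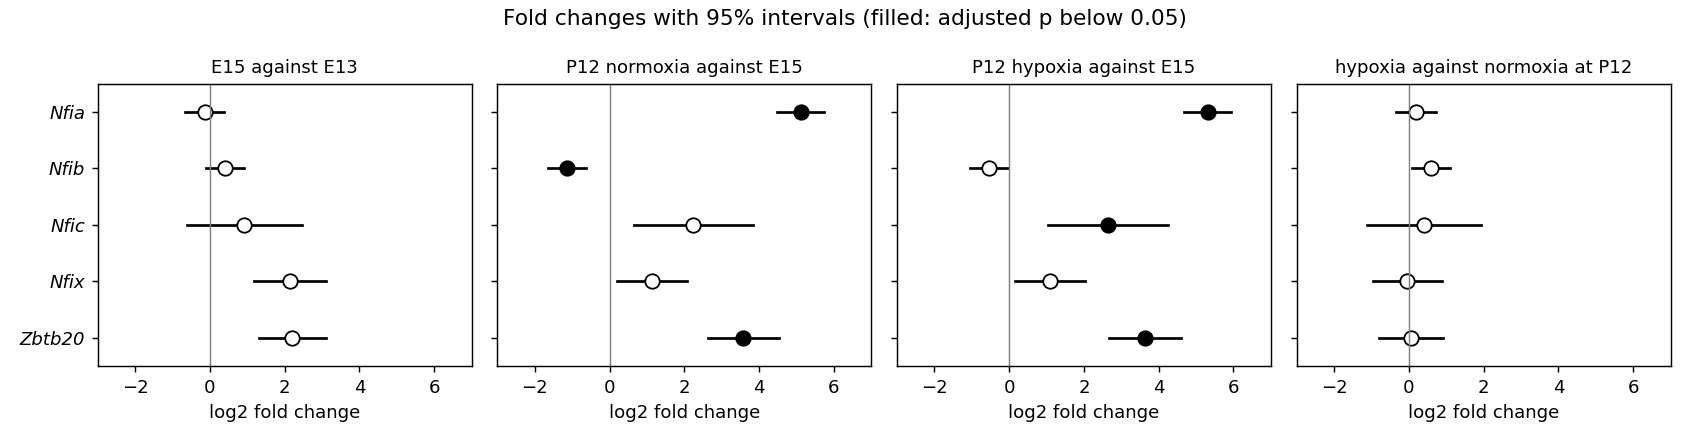
Log2 difference of each of the 5 genes in the 4 comparisons, with 95% intervals from the edgeR fit and filled points for an adjusted p under 0.05. Nfia and Zbtb20 are filled in both P12 comparisons with E15, Nfib only in that of normoxia and Nfic only in that of hypoxia. No point is filled in E15 against E13 or in hypoxia against normoxia.

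The last comparison, hypoxia against normoxia at P12, addressed the effect of the oxygen exposure. No difference of the 5 genes passed the test, where 3.02% of all genes were called (0.196% higher and 2.82% lower). Nfib was higher in both hypoxic libraries than in both normoxic ones, as were 13.1% of all tested genes, with a log2 difference of 0.60 (SE 0.21, 95% interval 0.09 to 1.11, 1.52-fold). Its edgeR p was 0.028 unadjusted and 0.225 adjusted, so 1 of the 5 genes had an unadjusted p under 0.05, beside 18.2% of all genes. DESeq2 called Nfib (log2 difference 0.80, adjusted p = 0.0415) and none of the other 4, limma-voom called 0 of the 5, and over the alternatives the Nfib difference was 0.47 to 0.80. The other differences were 0.19 for Nfia (interval -0.33 to 0.72), 0.41 for Nfic (interval -1.11 to 1.93), -0.04 for Nfix (interval -0.97 to 0.89) and 0.05 for Zbtb20 (interval -0.81 to 0.92). The intervals of Nfia, Nfix and Zbtb20 leave out a change of 2-fold in either direction, while those of Nfib and Nfic do not. Each interval rests on a spread estimated over all 4 groups. By the median over genes of at least 10 CPM, replicates lay farther apart at P12 than in the embryo, but the 5 genes varied in this. The gap was 1.23 on the log2 scale for Nfix in normoxia and 1.39 for Nfic in hypoxia. For Nfib it was 0.17 in normoxia and 0.08 in hypoxia, against 0.51 at E13 and 0.18 at E15. For the P12 groups these intervals may therefore be too narrow, though the Nfib libraries did not lie farther apart there. Oligodendrocyte lineage markers had a positive difference for 7 of 8 genes, with summed levels that did not overlap; edgeR and limma-voom called 0 of them (4 at an unadjusted p under 0.05 by each) and DESeq2 called 3 higher, Mbp and Olig2 among them. Of 7 neuron markers edgeR called 2 lower in hypoxia, Stmn2 (29.3 and 40.5 CPM in normoxia, 0.101 and 0.074 CPM in hypoxia) and Snap25 (85.8 and 87.6 CPM, then 0.605 and 0.333 CPM). These 2 calls were lost without any 1 embryonic library, with the replicate block, on the compared groups alone and by limma-voom. The neuron list was divided, with 3 positive and 4 negative differences. Its summed levels overlapped (501 to 538 CPM in normoxia, 267 to 686 CPM in hypoxia). The part of either marker list in the Nfib difference was not tested.

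Genes studied as targets of NFI factors in glia were then read in the same libraries. Of 14 such genes, edgeR called 11 higher in normoxic P12 cells than at E15 and 13 in hypoxic ones, and called 0 lower; DESeq2 called Apcdd1 lower in normoxia. Their median log2 difference was 8.12 in normoxia and 8.40 in hypoxia, with all tested genes at 0.00 and -0.32. The counts of this list and of the lists below stand beside these shares of all tested genes. Against E15, edgeR called 7.19% higher and 3.22% lower in normoxia, and 9.14% and 10.2% in hypoxia. An unadjusted edgeR p under 0.05 was found for 3.46% at E15 against E13 and for 18.2% in hypoxia against normoxia. Gfap, Slc1a2, Slc1a3, Aqp4, S100b and Aldh1l1 of this list are also among the astrocyte markers above. Fabp7 is also among the radial glia markers. For these genes the list repeats the marker result. Likewise Hes5, Olig2 and Sox10 of the lists below are also cell type markers above. Gfap, the intermediate filament of astrocytes and a classical NFI target, was at 0.0179 and 0 CPM at E13, 0 at E15, 1180 and 884 CPM in normoxia and 830 and 646 CPM in hypoxia, which is at least 20400-fold and 14600-fold higher than the E15 limit of 3 counts per library. Slc1a2, the astrocytic glutamate transporter, was at 3.45 and 6.61 CPM at E15, 2280 and 1950 CPM in normoxia and 2020 and 2870 CPM in hypoxia. For Slc1a2 the rise was 8.71 and 8.92 on the log2 scale (edgeR adjusted p = 0.00152 and 0.00149). In the embryonic libraries, which held Nfia at 234 to 295 CPM and Nfib at 1290 to 2190 CPM, Gfap was thus at or under the limit of 3 counts, while Slc1a2 was measured at 3.45 to 6.61 CPM.

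Further glial genes of the list showed the same separation of stages. Aldoc, a brain aldolase, rose by 9.96 in normoxia and 10.17 in hypoxia (edgeR adjusted p = 0.00344 and 0.00272). Aqp4, the astrocyte water channel, was at 1.11 and 1.55 CPM at E13, 0 at E15, 130 and 106 CPM in normoxia and 174 and 163 CPM in hypoxia, at least 2330-fold and 3340-fold above the E15 limit. Fabp7, the radial glial fatty acid binding protein, had the same order of stages as Nfix and Zbtb20, at 29.6 and 34.6 CPM at E13, 95.2 and 90.7 CPM at E15, 438 and 313 CPM in normoxia and 633 and 637 CPM in hypoxia. Its E15 to E13 difference of 1.53 had an edgeR p of 0.000993 unadjusted and 0.554 adjusted. DESeq2 (adjusted p = 0.00122), limma-voom (0.00819) and edgeR on the compared groups alone (0.0393) called Fabp7 higher at E15. Apcdd1, a target described in spinal cord gliogenesis, had the opposite sign: 135 and 99.5 CPM at E13, 103 and 98.5 CPM at E15, 36.8 and 29.9 CPM in normoxia and 47.9 and 94.1 CPM in hypoxia, and edgeR did not call its differences from E15. In normoxia it was called lower by DESeq2 (adjusted p = 0.0161), on the compared groups alone (0.0455), with library totals (0.0202) and without hypoxia replicate 1 (0.0189) or 2 (0.0276), and in hypoxia with library totals (0.0441). The calls of Gfap, Slc1a2 and Aqp4 held in 18 of 18 alternatives in both comparisons and those of Aldoc in 17 of 18 (limma-voom adjusted p = 0.062 and 0.0723). The number of the 14 called higher in normoxia and hypoxia fell to 5 and 8 without E15 replicate 1 and to 6 and 8 without E15 replicate 2. At E15 against E13, 0 of the 14 were called by edgeR (5 at an unadjusted p under 0.05, 3 called by DESeq2 and 4 by limma-voom), with a median of -0.01. In hypoxia against normoxia 0 were called by edgeR (1 at an unadjusted p under 0.05, with Fabp7 called by DESeq2 and 0 by limma-voom), with a median of 0.52 and 13 of 14 positive. Without hypoxia replicate 1 edgeR called Apcdd1 higher in hypoxia (adjusted p = 0.0356), and without hypoxia replicate 2 Glul (0.0485).

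Genes reported as higher in NFI knockout progenitors, where NFI factors act as repressors, were mostly higher at P12 than at E15 where they passed the test. Of 6 such genes, edgeR called 3 higher than at E15 in both P12 groups and 0 lower, while DESeq2 and limma-voom also called Ezh2 lower in normoxia. Hes5 and Hes1, effectors of Notch signalling, rose by 6.67 and 5.76 in normoxia and by 6.38 and 6.24 in hypoxia on the log2 scale (edgeR adjusted p = 0.00431 to 0.0148). Sox9, a factor that precedes and induces Nfia in the spinal cord, was at 29.4 and 35.0 CPM at E13, 24.9 and 24.5 CPM at E15, 397 and 582 CPM in normoxia and 1000 and 415 CPM in hypoxia, a rise of 4.31 and 4.84 (edgeR adjusted p = 0.00681 and 0.00417). Ezh2, a Polycomb methyltransferase described as repressed by NFI factors, was at 239 to 250 CPM in each embryonic library, 72.1 and 44.1 CPM in normoxia and 66.8 and 212 CPM in hypoxia, and its log2 difference of -2.06 in normoxia did not pass (edgeR adjusted p = 0.0778). In normoxia it passed by DESeq2 (adjusted p = 0.0253), by limma-voom (0.0361), on the compared groups alone (0.045), with library totals (0.0229) and without hypoxia replicate 1 (0.0145) or 2 (0.0229), and in hypoxia with library totals (0.0462) and without hypoxia replicate 2 (0.0473). Insc was at 1.66 and 0.755 CPM at E15, 0 and 8.64 CPM in normoxia and 0 in both hypoxic libraries, at least 11.4-fold lower in hypoxia than at E15. On the compared groups alone edgeR called Insc lower in hypoxia than at E15 (adjusted p = 0.0448). The list's median was 3.07 in normoxia and 2.52 in hypoxia. The Hes5, Hes1 and Sox9 calls were all lost without E15 replicate 1 or without E15 replicate 2 (edgeR adjusted p = 0.0522 to 0.166), which left 0 called higher, and the Hes1 call in normoxia was lost without either E13 library (edgeR adjusted p = 0.0549). In E15 against E13 and in hypoxia against normoxia edgeR called 0 of the 6 (0 and 0 at an unadjusted p under 0.05), as did DESeq2 and limma-voom, though Ezh2 was called higher in hypoxia without hypoxia replicate 1 (edgeR adjusted p = 0.0272).

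Layer and projection neuron factors studied with Zbtb20 went in both directions. Of 9, 2 were called higher and 1 lower in normoxia against E15, and 2 higher and 2 lower in hypoxia, with medians of -0.19 and -0.63. Of all tested genes, 7.19% were called higher and 3.22% lower in normoxia, and 9.14% and 10.2% in hypoxia. Rorb, a nuclear receptor of layer 4 neurons that astrocytes also express, was at 4.28 to 6.35 CPM in the embryonic libraries and at 2110 and 2020 CPM in normoxia and 3670 and 2680 CPM in hypoxia, a rise of 8.52 and 9.14 (edgeR adjusted p = 0.000679 and 0.000592). Pou3f2, a POU factor of upper layer neurons and progenitors, rose by 2.77 and 2.63 (edgeR adjusted p = 0.0191 and 0.0149). Fezf2, the selector of subcerebral neurons, fell by 2.09 in normoxia (edgeR adjusted p = 0.0193), and Bcl11b, its partner in that lineage, was at 216 and 200 CPM at E15, 41.4 and 97.1 CPM in normoxia, and 0 and 0.074 CPM in hypoxia. Between hypoxia and normoxia edgeR called 1 of the 9, Bcl11b (adjusted p = 0.0217), and DESeq2 also called Fezf2, higher in hypoxia (adjusted p = 0.014). Without hypoxia replicate 1 edgeR also called Cux1 and Foxp2 lower (adjusted p = 0.0326 and 0.0199), and without hypoxia replicate 2 Sox5 and Tbr1 (0.0196 and 0.0397). Several neuron markers were low in the same hypoxic libraries: beside Stmn2 and Snap25, Syt1 was at 0 and 0.111 CPM against 130 and 58.6 CPM in normoxia, and Rbfox3 at 0.101 and 7.14 CPM against 65.5 and 51.3 CPM. The neuron list had a median of -4.01 on the log2 scale, but 3 of its 7 differences were positive. Map2 had 80.3 and 151 CPM in normoxia and 177 and 310 CPM in hypoxia. Dcx had 54.1 and 62.6, then 26.3 and 213 CPM, and Tubb3 had 56.9 and 87.7, then 62.5 and 155 CPM. Map2, Dcx and Tubb3 carried the summed level in hypoxia. The part of the neuron list in the Bcl11b difference was not tested. The Rorb calls held in 18 of 18 alternatives. In hypoxia against E15 the lower calls were Fezf2 and Bcl11b, and limma-voom called neither (adjusted p = 0.0971 and 0.161). There the Fezf2 call held in 10 of 18 alternatives and that of Bcl11b in 17 of 18. Fezf2 was also lost in edgeR with the replicate block (adjusted p = 0.0696), on the compared groups alone (0.0701) and without a filter (0.0558). The call between the P12 groups for Bcl11b was lost without any 1 of the embryonic libraries (edgeR adjusted p = 0.151 to 0.155), with the replicate block (0.0929), on the compared groups alone (0.341) and by limma-voom (0.642). The Pou3f2 and Fezf2 calls were lost without E15 replicate 1 or 2 (edgeR adjusted p = 0.111 to 0.219). In normoxia Pou3f2 was also not called without an E13 library (0.0599 and 0.0597) or a normoxia library (0.0713 and 0.0504), nor Fezf2 without an E13 library (0.0992 and 0.0998). Without either E15 library, 1 gene of the list was called higher in each comparison, 0 lower in normoxia and 1 lower in hypoxia. In normoxia 1 was called higher without either E13 or either normoxia library, and 0 lower without either E13 library (2 without hypoxia replicate 2). In hypoxia 4 were called lower without either hypoxia library, 1 without either E13 library, and 3 higher without hypoxia replicate 2. At E15 against E13 edgeR called 0 of the 9 (1 at an unadjusted p under 0.05, 1 called by DESeq2 and 3 by limma-voom).

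Other regulators of the onset of gliogenesis also split. Of 16, Lin28a had 0 counts and 15 were tested; 5 were called higher and 2 lower in normoxia, 6 and 2 in hypoxia, with medians of 0.00 and 1.32 (0.88 and 1.82 with genes absent from 1 group set at their limit and those absent from both left out). Lhx2, which holds progenitors in the neurogenic state, fell by 2.93 in normoxia and fell by 3.76 in hypoxia on the log2 scale, from 674 and 657 CPM at E15 to 98.6 and 76.1 CPM and to 54.3 and 43.7 CPM (edgeR adjusted p = 0.00316 and 0.00168). Stat3, the cytokine effector that activates astrocyte genes, rose by 2.08 and 2.32 (edgeR adjusted p = 0.0156 and 0.00795). Olig2, of the oligodendrocyte lineage, was at 0 at E15, 44.9 and 24.8 CPM in normoxia and 119 and 163 CPM in hypoxia, at least 690-fold and 2790-fold above the E15 limit. Lin28b, the RNA-binding protein of early progenitors, was at 3.79 and 10.7 CPM at E13 and at 0 in each later library, at least 144-fold lower at E15 (edgeR adjusted p = 1). The Olig2 calls held in 18 of 18 alternatives, and those of Lhx2 in 18 of 18 in normoxia and 17 of 18 in hypoxia (limma-voom adjusted p = 0.0632). The Stat3 calls were lost without E15 replicate 1 (edgeR adjusted p = 0.205 and 0.109) or replicate 2 (0.177 and 0.0939), and in normoxia without an E13 library (0.0689 and 0.0701) or normoxia replicate 1 (0.0626). Without either E15 library 1 gene was called higher and 1 lower in each comparison, as also in normoxia without normoxia replicate 1. In normoxia the counts were 3 and 1 without either E13 library, 5 and 1 without normoxia replicate 2, and 6 and 5 without either hypoxia library, and in hypoxia they were 4 and 1 without either E13 library. At E15 against E13 edgeR called 0 (3 at an unadjusted p under 0.05, 1 called by DESeq2 and 5 by limma-voom), and in hypoxia against normoxia 0 (5 unadjusted, 4 by DESeq2 and 0 by limma-voom). Dnmt1 was called higher in hypoxia without hypoxia replicate 1 (edgeR adjusted p = 0.0226) or 2 (0.0267) or normoxia replicate 2 (0.0478), Notch1 lower without hypoxia replicate 1 (0.0462) and Sox8 higher without hypoxia replicate 2 (0.0324).

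**Figure D4:**
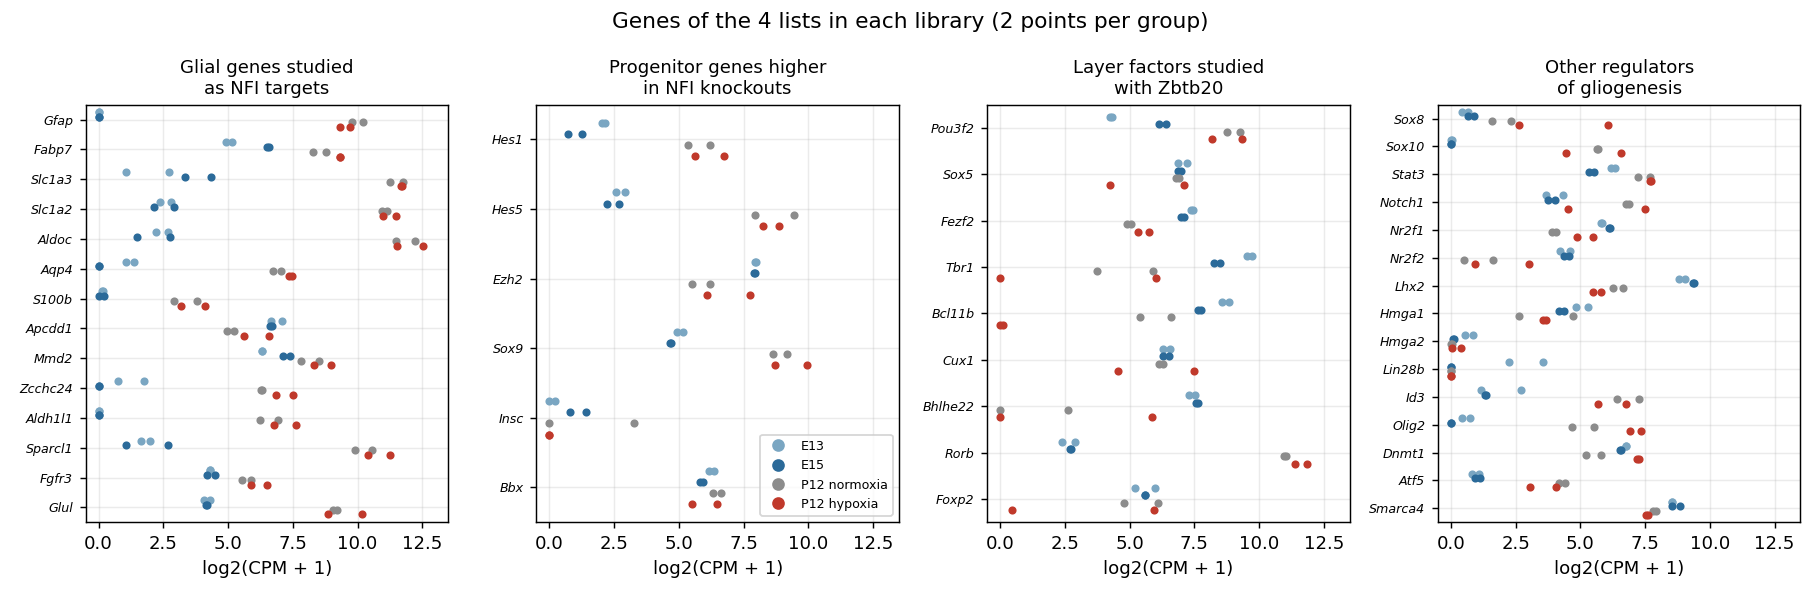
Level of each gene of the 4 lists in each library, as log2(CPM + 1), in 1 panel per list. Of the 14 glial genes studied as NFI targets, 13 lie higher in each P12 library than in each E15 library on this scale, and the other lists hold genes that go either way.

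Over the 8 libraries, which share the 4 groups and the same scaling, the 5 genes did not all run together. The Pearson correlation of log2 CPM was 0.96 for Nfic with Zbtb20, 0.94 for Nfia with Nfic and with Zbtb20, 0.91 for Nfix with Zbtb20, 0.85 for Nfic with Nfix and 0.77 for Nfia with Nfix. Nfib was negatively related to each of the others, from -0.71 with Nfia to -0.34 with Nfix. These values mostly restate the step between embryo and P12 and are a description only. Among 9515 genes of at least 10 CPM, the closest to Nfia were Gbp3, Map3k19 and Slc13a3 (r = 0.999 each), all at 0 in the 4 embryonic libraries, so they share with Nfia the step and not its embryonic level. Closest to Zbtb20 were Nav2 (0.997), Lmo4 (0.996) and Cdk6 (0.994). Nav2, a cytoskeletal protein gene, had 2.81 and 1.66 CPM at E13, 13.2 and 19.5 CPM at E15, 1040 and 752 CPM in normoxia and 567 and 815 CPM in hypoxia, with each stage apart as for Zbtb20. Cdk6, a kinase of the G1 phase, had 3.52 and 5.06, 45.0 and 39.4, 4680 and 1470, and 2350 and 5190 CPM in the same order. Closest to Nfib were Ulk2 (0.977), Prex1 (0.976) and Ppp2r1b (0.956), which were all highest at E15 and lowest in normoxia. Closest to Nfix were Laptm4a and Gabra4 (0.986 each) and Slc1a1 (0.979), and closest to Nfic were Zbtb11 (0.994), Tmem205 (0.992) and Phlda1 (0.989).

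The transcript opposite to Nfib, Gm11266, was singled out after its values were seen. It had 56.7 and 55.3 CPM at E13, 64.4 and 65.4 CPM at E15, 0.0953 and 9.97 CPM in normoxia and 0 and 4.84 CPM in hypoxia. Gm11266 was thus lower in each P12 library than in each embryonic one, and against E15 its fall was larger than that of Nfib. At its embryonic level it held few reads beside Nfib, which had 1290 to 2190 CPM there. E130114P18Rik, opposite to Nfia, had 26.3 to 114 CPM in the embryonic and 7.65 to 126 CPM in the P12 libraries, without the step that Nfia showed.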

How the data were processed

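The deposited files hold raw counts of reads per gene, 1 file per library. Per the submitters' processing notes, cutadapt, STAR and Subread were used with GRCm38, without versions or settings; the labels name 400 pg of total RNA per library. The annotation release, strand setting and treatment of multi-mapping reads are not given in the sources used here. Of 55487 rows per file, 1980 named no gene (0.205% to 0.266% of counts) and were left out. Gene positions and lengths came from GENCODE M21, and coding sequences were aligned with MAFFT 7.526.

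Counts were fitted with edgeR 4.0.16 in R 4.3.3 (filterByExpr with minimum count 10 and minimum total 15, TMM, glmQLFit and glmQLFTest on 4 groups over 8 libraries, 4 residual degrees of freedom). P-values are two-sided, with Benjamini-Hochberg adjustment across the 19936 genes; a gene was called at an adjusted p under 0.05. The SE comes from the F statistic. Alternatives used DESeq2 1.42.0, limma 3.58.1 (voom with sample quality weights), other scalings and filters, a replicate block and each library left out; where that left a group with 1 library, its spread was taken from the other groups. Scripts were tested on simulated data. Figures were drawn with matplotlib 3.10.9 in Python 3.11.15.

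The genes and lists were chosen with earlier results of these data known. Genes named beside the 5 were, for each, the 3 of highest correlation over the libraries (at least 10 CPM on average, no provisional, haemoglobin or sex-linked symbols) and, per list and comparison, up to 4 of smallest p. A gene that the rule named in 1 comparison may be given in others too. From the list of layer factors 1 gene is not reported here.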

Additional observations from a re-analysis of the deposited data

How the results depend on the processing

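Over 18 alternatives the direction of Nfia, Nfib, Nfic, Nfix and Zbtb20 held in both P12 comparisons with E15. In E15 against E13, where edgeR called 0 of the 5, DESeq2 called 2, limma-voom 1 and the compared groups alone 1, with 364, 935 and 229 calls over all genes. In hypoxia against normoxia DESeq2 called 1 of the 5, and the calls over all genes (602) became 3966 by DESeq2, 0 by limma-voom, 295 without a filter, 0 on the compared groups alone and 1 with the replicate block. For hypoxia against E15 (3857) they became 7902 by DESeq2, 2328 by limma-voom, 2509 without a filter and 1849 with the replicate block. For normoxia against E15 (2075) they became 6186 by DESeq2, 3503 by limma-voom, 1283 without a filter, 3437 on the compared groups alone and 826 with the replicate block. Leaving out 1 library gave 0 to 3018, 436 to 5908 and 210 to 4429 calls in these comparisons in turn, lowest without E15 replicate 1 (0 also without any other embryonic library) and highest without hypoxia replicate 1, and 1 to 3 (hypoxia) and 1 to 4 (normoxia) of the 5 genes against E15. The cause was not tested.

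The differences that changed sign were not called by edgeR over the 8 libraries. In hypoxia against normoxia Nfix became 0.18 by DESeq2 and by RLE scaling, 0.11 by limma-voom, 0.0086 without a filter and 0.0255 with the replicate block, and Zbtb20 became -0.0306 with library totals and -0.0709 with upper-quartile scaling. Leaving out 1 library gave -0.31 to 0.70 for Nfix, -0.28 to 0.71 for Zbtb20, -0.0164 to 0.66 for Nfia and -0.45 to 1.05 for Nfic there, and -0.31 to 0.044 for Nfia in E15 against E13.

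Libraries of equal replicate number did not deviate together (correlations of -0.039 to 0.008 over 6 pairs of groups), so they share only a number; with the block as a term 0, 0, 2 and 2 of the 5 genes were called in E15 against E13, hypoxia against normoxia, and normoxia and hypoxia against E15. At a depth of at least 36252027 counts the 5 genes stood far above the limit of 3 counts in each library.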
